A study of Mus musculus with 60 samples.

Results

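Homeodomain and forebrain patterning transcription factors were followed in the adult dentate gyrus (DG) as a list of 39 genes. They were chosen by name from the 46480 genes in the count files, with earlier results of these data known. The list held 11 families, and each of its genes matched 1 gene of the Gencode annotation. RNA-Seq, which counts sequenced RNA fragments per gene, was made from the dorsal and the ventral DG of male C57BL6J mice. The mice were weaned on day 22 into standard housing (SH) or an enriched environment (EE), stayed there for 8 weeks and were collected at 80 days of age. Region and housing gave 4 groups, and the labels name no other treatment or genotype. SH replicate 3 was left out in both regions, which left 18 libraries from 9 pools of mice (4 SH and 5 EE). The study excluded 1 SH sample, without giving its number, for high expression of Xist, an RNA expressed only in females. Dorsal and ventral samples came from the same mice, and libraries of the same replicate number are taken here to be from 1 pool, so the replicates were separate pools of several mice and not single animals.

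The tissue was punched from frozen slices, so each library held granule cells together with glia, interneurons and neighbouring cells. The libraries held between 22919364 and 28301861 fragments on genes (median 25816352). Levels are given in CPM, counts scaled to the library total after TMM normalization. A gene was called where the adjusted p was under 0.05 and the fold change over 1.2. Adjusted p values are Benjamini-Hochberg values over the 17040 genes tested by edgeR's quasi-likelihood F test. Log2 differences are dorsal minus ventral, or EE minus SH where stated, and are given ± SE. Prox1, a homeodomain factor that marks granule cells, averaged 243 CPM in dorsal and 127 CPM in ventral libraries, and all 10 granule cell markers were detected. Summed over the list, granule cell markers lay between 1567 and 1760.2 CPM in dorsal and between 693 and 999.7 CPM in ventral libraries, with 9 of 10 called higher in dorsal. Their log2 differences ran from 0.21 (Calb1) to 1.88 (Lct, which the study names as dorsally enriched), so the sum depends on the genes listed. Choroid plexus markers went the other way, from 28.4 to 221 CPM in dorsal and from 406 to 1489.5 CPM in ventral libraries, with 12 of 12 called higher in ventral. CA pyramidal markers summed to 859.9 to 955 CPM in dorsal and 1035 to 1256 CPM in ventral libraries (6 of 12 called higher in ventral, 2 in dorsal). For habenula and thalamus markers the sums were 226 to 313 CPM in dorsal and 195 to 250.2 CPM in ventral libraries (8 of 13 called higher in dorsal, 1 in ventral). The 1 was Calb2, also on the hilar mossy cell list, with means of 15.9 CPM in dorsal and 84.0 CPM in ventral libraries. It made up a large part of the ventral sum, while Prkcd, called higher in dorsal, averaged 82.1 CPM in dorsal and 16.4 CPM in ventral libraries. GABA interneuron markers summed to 991 to 1093 CPM in dorsal and 1074 to 1186 CPM in ventral libraries (4 of 10 called higher in ventral, 1 in dorsal). Of the other lists, subiculum and amygdala markers had 4 of 8 called higher in ventral and 1 in dorsal, astrocyte markers had 3 of 8 called higher in ventral, and hilar mossy cell, Cajal-Retzius, microglia, oligodendrocyte, oligodendrocyte precursor and endothelial lists had at most 2 calls in either direction. No marker was at 0 in all libraries. Several of these sums differed with region, as did the called members below, and their part in the members' differences was not tested. Endothelial sums had a median of 198 CPM in both regions. In whole tissue, fewer cells of a type and less RNA per cell cannot be told apart.

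**Figure D1:**
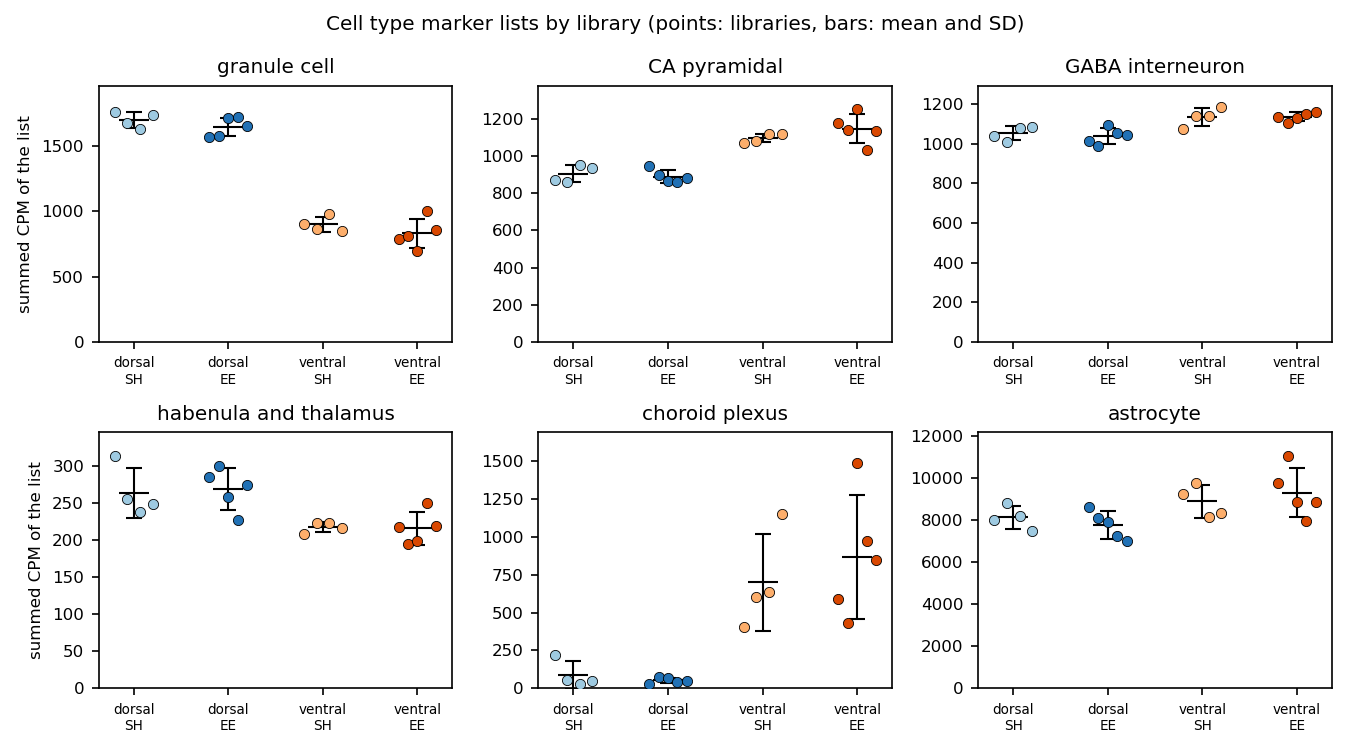
Summed CPM (vertical axis) of 6 lists of cell type markers in each library of the 4 groups, with points for libraries and bars for the mean and SD. Granule cell sums of the 9 dorsal libraries (1567 to 1760.2 CPM) sit above those of the 9 ventral ones (693 to 999.7 CPM), and choroid plexus sums (28.4 to 221 against 406 to 1489.5 CPM) sit below.

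Homeodomain proteins bind DNA through a conserved helix-turn-helix fold, and in the embryo their graded or sharply bounded expression divides the forebrain into territories. EMX, LIM homeodomain and COUP-TF factors set up the cortical area map and the hippocampal primordium, while DLX and LHX6 direct the interneuron lineage. Many of these genes stay on in adult neurons, where they are known to help keep neuronal identity.

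Region gave more calls among the member genes than housing did. Of the 39 genes, 38 had more than 10 counts in at least 2 libraries and were tested, and 20 of them were called, 11 towards dorsal and 9 towards ventral DG. By this rule 32.7% of all tested genes were called (15.9% towards dorsal, 16.8% towards ventral), against 52.6% of the tested members. The members were chosen with earlier results known, so this comparison and those that follow do not test whether the families stand out. The median size of the log2 difference was 0.29 over members and 0.19 over all tested genes. The median signed difference, dorsal minus ventral, was -0.06 over members and 0.00 over all tested genes. Another 8 members had an adjusted p under 0.05 with a fold change under the limit, and 10 did not pass.

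**Figure D2:**
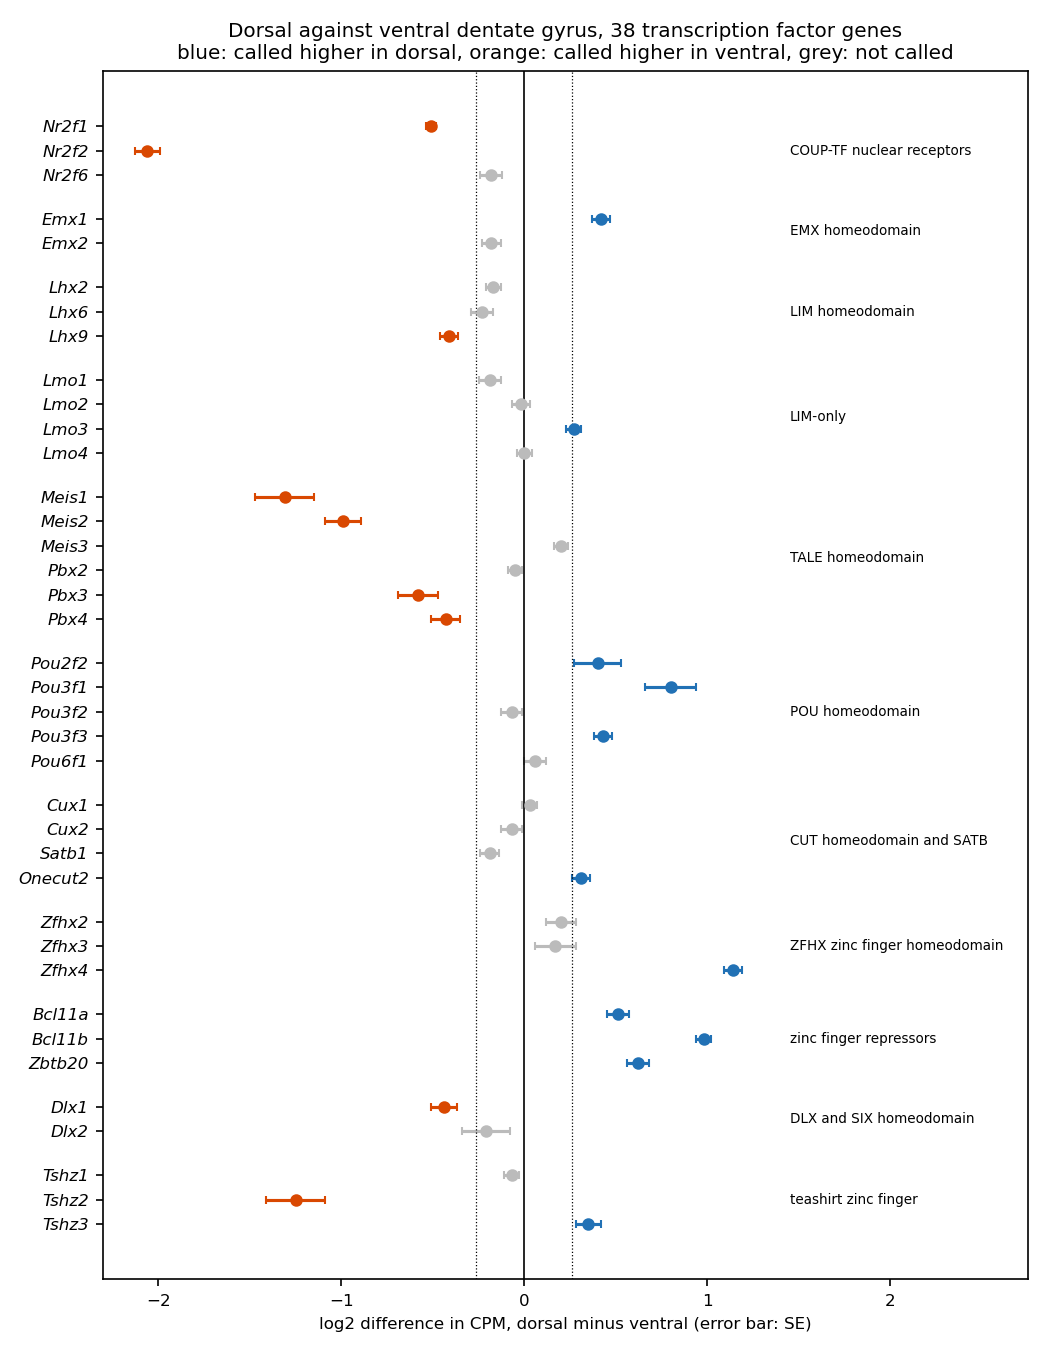
Log2 difference in CPM, dorsal minus ventral (horizontal axis, error bars SE), for the 38 tested members grouped by family, with dotted lines at the fold limit of 1.2. The 9 orange points are genes called higher in ventral, from Nr2f2 at -2.06, the 11 blue points are genes called higher in dorsal, up to Zfhx4 at 1.14, and the 18 grey points were not called.

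In 10 of the 38 members no dorsal library overlapped a ventral one (26.3%, against 18.9% of all tested genes). The 6 of these that were higher in ventral were Nr2f2, Nr2f1, Meis1, Meis2, Tshz2 and Lhx2, and the 4 higher in dorsal were Zfhx4, Bcl11b, Zbtb20 and Emx1. Within pools, 23 members went in 1 direction in all 9 (60.5%, against 40.4% of all tested genes), and 18 of the 20 called members were among them. The direction was the same in SH and in EE for all 20 called members. In the left-out SH replicate 3, the sign was the same for 17 of the 20, the exceptions being Pbx3, Pou2f2 and Tshz3.

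Promoter entries of RefSeq (GRCm38.p6) matched 33 of the 39 members, the exceptions being Lmo2, Pbx3, Pou3f1, Zfhx4, Onecut2 and Tshz1. The 250 bases upstream of the RefSeq start (the most upstream where several are listed) held a median of 16 CG dinucleotides over these members and 6 over the promoters of 27025 genes. Members ranged from 1 CG dinucleotide (Nr2f2) to 44 (Lmo4). RefSeq and Gencode starts differ, and 20 of the 33 windows overlapped the Gencode span of their gene, 16 of them wholly. The 4 sequences below belong to the genes with the largest called differences in each direction among those with an entry, 2 higher in ventral (Nr2f2 and Meis1) and 2 higher in dorsal (Bcl11b and Zbtb20). They are written 5′ to 3′ on the strand of the gene, with each CG dinucleotide, the usual target of DNA methylation, in capitals. The Nr2f2 window (chr7:70366747-70366996, minus strand) has 1 of them, the Meis1 window (chr11:19018970-19019219, minus strand) 13, the Bcl11b window (chr12:108003415-108003664, minus strand) 9 and the Zbtb20 window (chr16:43247034-43247283, plus strand) 3. Of the 250 bases, 0 lay inside the Gencode gene for Nr2f2, 16 for Meis1 and 188 for Bcl11b. The Zbtb20 window lay wholly inside its gene, with the RefSeq start 371403 bases downstream of the Gencode start.
Nr2f2: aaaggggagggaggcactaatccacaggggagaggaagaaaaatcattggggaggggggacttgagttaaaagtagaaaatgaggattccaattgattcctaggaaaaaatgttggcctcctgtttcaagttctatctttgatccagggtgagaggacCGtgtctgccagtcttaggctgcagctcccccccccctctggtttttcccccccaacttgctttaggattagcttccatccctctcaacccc
Meis1: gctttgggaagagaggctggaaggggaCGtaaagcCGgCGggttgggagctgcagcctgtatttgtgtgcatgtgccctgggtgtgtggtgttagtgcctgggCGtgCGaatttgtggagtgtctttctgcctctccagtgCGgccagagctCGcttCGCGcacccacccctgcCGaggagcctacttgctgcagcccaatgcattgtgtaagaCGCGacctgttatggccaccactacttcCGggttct
Bcl11b: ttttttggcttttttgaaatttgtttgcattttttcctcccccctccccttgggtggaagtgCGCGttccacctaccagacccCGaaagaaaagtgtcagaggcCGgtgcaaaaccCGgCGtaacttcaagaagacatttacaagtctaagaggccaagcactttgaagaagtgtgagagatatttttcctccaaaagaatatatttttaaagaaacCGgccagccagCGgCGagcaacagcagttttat
Zbtb20: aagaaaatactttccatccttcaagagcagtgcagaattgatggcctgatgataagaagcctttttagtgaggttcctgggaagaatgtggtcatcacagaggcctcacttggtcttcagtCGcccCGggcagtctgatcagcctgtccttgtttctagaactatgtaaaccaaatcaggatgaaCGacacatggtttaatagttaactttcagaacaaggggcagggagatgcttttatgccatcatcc
Letters that homeodomain, nuclear receptor or MEIS proteins are known to bind were searched on both strands of the same windows. The letters TAATTA were in 1 of 33 member windows (Lmo1), or 3.03%, against 4.91% of all promoters. AGGTCA was in 1 member window (Dlx1), or 3.03%, against 13.8%, and TGACAG was in 2 (Lhx9 and Six3), or 6.06%, against 15.9%. None of these letters was in the 4 windows printed here. Member windows held more CG dinucleotides than all promoters (median 16 against 6). The shares above were not matched for base content, so they cannot show whether such sites are rarer in the members.

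The COUP-TF genes encode orphan nuclear receptors that pattern the caudal cortex and ventral hippocampus, and 2 of 3 were called, both higher in ventral. Nr2f2 (COUP-TFII; chr7:70351944-70366735, minus strand) had the largest difference of any member. Its dorsal SH libraries held 8.64, 5.96, 7.99 and 6.25 CPM and its dorsal EE libraries 7.26, 6.63, 7.68, 7.18 and 7.41 CPM. Ventral SH libraries held 26.2, 30.3, 28.9 and 31.7 CPM and ventral EE libraries 32.9, 25.9, 30.8, 29.1 and 35.8 CPM. The lowest ventral library was thus far above the highest dorsal one, and the log2 difference was -2.06 ± 0.07, adjusted p = 3.03e-16, a 4.16-fold difference. Nr2f1 (COUP-TFI; chr13:78188973-78199757, minus strand) showed a smaller but equally separate pattern. It stood at 45.9, 43.7, 40.9 and 42.8 CPM in dorsal SH and 41.4, 41.1, 39.3, 45.0 and 41.1 CPM in dorsal EE. The ventral values were 60.4, 62.6, 57.5 and 63.0 CPM in SH and 57.5, 61.4, 58.5, 58.9 and 63.1 CPM in EE. No library overlapped, and the log2 difference was -0.51 ± 0.03, adjusted p = 1.64e-11. Nr2f6, a more distant relative, ranged over 27.5 to 38.0 CPM (median 29.9) in dorsal and 28.7 to 39.6 CPM (median 34.4) in ventral libraries, with a log2 difference of -0.18 ± 0.06, adjusted p = 0.0187, under the fold limit.

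Among the TALE homeodomain genes, whose proteins bind DNA together with other homeodomain factors, 4 of 6 were called, all higher in ventral. Meis1 (chr11:18879817-19018985, minus strand) was near the bottom of the range of levels. It held 0.574, 0.411, 0.512 and 0.410 CPM in dorsal SH and 0.516, 0.663, 0.488, 0.449 and 0.420 CPM in dorsal EE. The ventral libraries held 1.73, 1.09, 1.01 and 1.39 CPM in SH and 1.2, 0.679, 1.33, 1.18 and 1.30 CPM in EE. Ventral EE replicate 2 (0.679 CPM) came close to the highest dorsal library (0.663 CPM), and the other ventral libraries were at 1.01 CPM or more. The log2 difference was -1.31 ± 0.16, adjusted p = 3.61e-07. Meis2 (chr2:115863064-116065839, minus strand) held 6.38, 8.68, 9.99 and 9.34 CPM in dorsal SH and 9.87, 8.49, 9.68, 9.71 and 7.03 CPM in dorsal EE. In ventral SH it stood at 14.8, 17.7, 14.6 and 16.0 CPM and in ventral EE at 19.1, 22.9, 22.6, 13.2 and 17.9 CPM. The regions did not overlap, with a log2 difference of -0.99 ± 0.10, adjusted p = 1.73e-08, a 1.98-fold difference. Meis3 went the other way in all 9 pools, but stayed under the fold limit (0.20 ± 0.04, adjusted p = 0.000543). The PBX proteins are the usual partners of MEIS. Pbx3 ranged over 1.54 to 2.90 CPM (median 1.79) in dorsal and 2.05 to 3.57 CPM (median 2.68) in ventral libraries, with a log2 difference of -0.58 ± 0.11, adjusted p = 0.000151. Pbx4 ranged over 2.80 to 4.35 CPM (median 3.35) in dorsal and 3.73 to 5.33 CPM (median 4.50) in ventral libraries (-0.43 ± 0.08, adjusted p = 6.72e-05). Both were higher in ventral in all 9 pools although their ranges overlapped. Pbx2, with 34.6 to 40.9 CPM (median 36.3) in dorsal and 36.6 to 41.5 CPM (median 37.5) in ventral libraries, did not pass (-0.05 ± 0.04, adjusted p = 0.266).

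The teashirt genes encode zinc finger factors, and their 3 members differed among themselves. Tshz2 (chr2:169633013-170071816, plus strand) held 7.49, 10.3, 5.59 and 6.33 CPM in dorsal SH and 10.0, 8.91, 5.45, 4.61 and 6.26 CPM in dorsal EE. Ventral SH libraries held 12.5, 12.6, 15.2 and 13.6 CPM and ventral EE libraries 16.9, 36.9, 21.4, 18.9 and 16.0 CPM. Every ventral library was above every dorsal one, and ventral EE replicate 2 stood far above the rest. The log2 difference was -1.25 ± 0.16, adjusted p = 9.52e-07, and without EE replicate 2 it was -1.17 (adjusted p = 4.90e-08). Tshz3 was higher in dorsal, with 7.22 to 9.86 CPM (median 7.91) there and 5.76 to 7.60 CPM (median 6.25) in ventral libraries (0.35 ± 0.07, adjusted p = 0.000210). Tshz1 did not pass (-0.07 ± 0.04, adjusted p = 0.177).

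LIM homeodomain factors act early in hippocampal development, and 1 of 3 was called, higher in ventral, while the other two had an adjusted p under 0.05 and the same direction under the fold limit. Lhx2 (chr2:38339281-38369733, plus strand), a selector of cortical identity, held 52.3, 55.9, 55.7 and 54.1 CPM in dorsal SH and 53.0, 54.1, 53.0, 50.6 and 47.9 CPM in dorsal EE. The ventral libraries held 61.4, 61.9, 56.2 and 56.2 CPM in SH and 57.7, 71.4, 57.9, 57.8 and 59.3 CPM in EE. The regions did not overlap, but the closest dorsal and ventral libraries were 55.9 and 56.2 CPM, and the log2 difference of -0.17 ± 0.04, adjusted p = 0.00110, was under the fold limit. Lhx9, a close relative of Lhx2, with 17.7 to 25.5 CPM (median 20.4) in dorsal and 22.2 to 30.5 CPM (median 28) in ventral libraries, was called (-0.41 ± 0.05, adjusted p = 5.53e-07). Lhx6, a factor of interneurons from the medial ganglionic eminence, ranged over 8.41 to 11.4 CPM (median 10.6) in dorsal and 10.4 to 13.5 CPM (median 12.4) in ventral libraries (-0.23 ± 0.06, adjusted p = 0.00284, under the fold limit). With all 20 libraries Lhx6 passed the fold limit, with a log2 difference of -0.29 (adjusted p = 0.000762). The added SH replicate 3 held 7.33 CPM of Lhx6 in dorsal, below the dorsal range above, and 13.5 CPM in ventral. Of the DLX genes, which act in the same lineage, Dlx1 was called higher in ventral (-0.44 ± 0.07, adjusted p = 7.75e-06) with 5.39 to 8.54 CPM (median 6.59) in dorsal and 7.76 to 10.4 CPM (median 9.08) in ventral libraries. With unstranded counts the Dlx1 difference was -0.27 (adjusted p = 0.000140), just past the fold limit. Dlx2 did not pass (-0.21 ± 0.13, adjusted p = 0.190). Six3, a factor of the anterior forebrain, was the 1 member below the count filter, with 15 counts over the 18 libraries and at most 0.118 CPM in any of them.

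EMX1 and EMX2 are homeodomain factors of the dorsal telencephalon, and 1 of the 2 genes was called. Emx1 (chr6:85187438-85204462, plus strand) held 15.4, 15.8, 14.2 and 13.1 CPM in dorsal SH and 14.0, 16.3, 15.0, 15.7 and 14.7 CPM in dorsal EE. Ventral SH libraries held 12.5, 10.7, 11.0 and 9.68 CPM and ventral EE libraries 9.98, 11.9, 10.6, 11.5 and 11.8 CPM. All dorsal libraries were above all ventral ones, with a log2 difference of 0.42 ± 0.05, adjusted p = 8.24e-07. Emx2 was higher in ventral in all 9 pools, with overlapping ranges and a fold change under the limit (-0.18 ± 0.05, adjusted p = 0.00343).

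Of the zinc finger repressors, all 3 were called higher in dorsal. Bcl11b (CTIP2; chr12:107910403-108003602, minus strand), a factor expressed in mature granule cells, held 259, 229, 239.6 and 250.5 CPM in dorsal SH and 239, 213, 255, 252 and 228 CPM in dorsal EE. The ventral libraries held 113, 126, 129.5 and 126 CPM in SH and 113, 127, 109, 131 and 123 CPM in EE. The lowest dorsal library was far above the highest ventral one, and the log2 difference was 0.98 ± 0.04, adjusted p = 3.08e-14. Prox1 had a log2 difference of 0.94, and a part of cell content in either difference was not tested. Zbtb20 (chr16:42875881-43642602, plus strand), which specifies hippocampal neurons, held 602, 632, 642 and 625 CPM in dorsal SH and 634, 534, 656, 549 and 555 CPM in dorsal EE. In ventral SH it stood at 348, 435, 401 and 373 CPM and in ventral EE at 410.2, 403, 407, 333 and 449 CPM. The regions did not overlap, and the log2 difference was 0.62 ± 0.06, adjusted p = 3.09e-09. Bcl11a ranged over 49.2 to 73.8 CPM (median 64.1) in dorsal and 39.7 to 50.7 CPM (median 45.3) in ventral libraries, where only dorsal EE replicate 2 (49.2 CPM) fell within the ventral range (0.51 ± 0.06, adjusted p = 1.88e-07).

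ZFHX proteins combine zinc fingers with several homeodomains, and all 3 members had positive dorsal minus ventral differences. Zfhx4 (chr3:5218526-5415857, plus strand) held 32.2, 34.8, 31.9 and 31.6 CPM in dorsal SH and 31.6, 33.6, 32.6, 29.8 and 28.9 CPM in dorsal EE. Ventral SH libraries held 15.7, 13.7, 13.9 and 13.7 CPM and ventral EE libraries 13.9, 16.0, 13.8, 16.1 and 13.5 CPM. This was the largest difference towards dorsal, 1.14 ± 0.05, adjusted p = 4.12e-15, a 2.21-fold difference, and no library overlapped. Zfhx2 stayed under the fold limit (0.20 ± 0.08, adjusted p = 0.0235) and Zfhx3 did not pass (0.17 ± 0.11, adjusted p = 0.200).

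**Figure D3:**
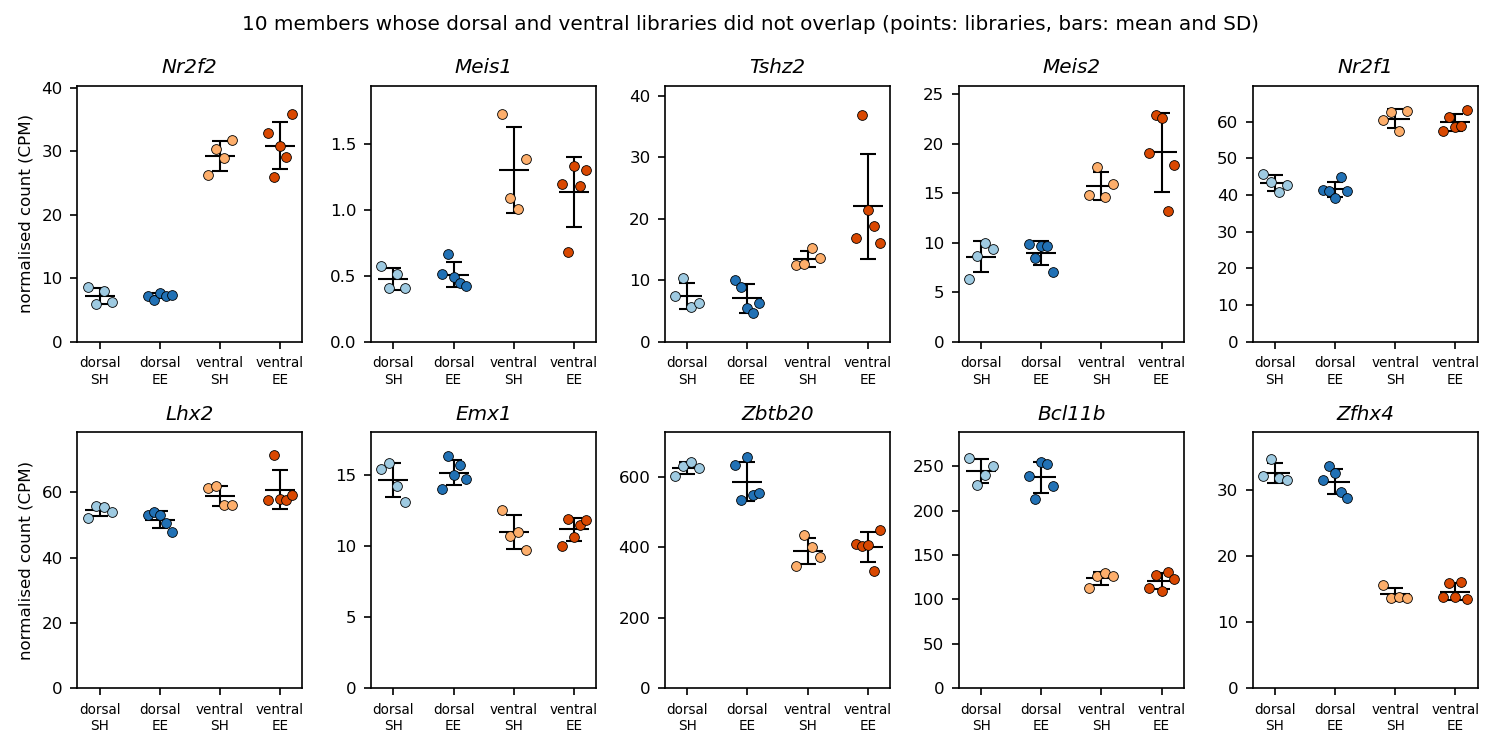
Normalised count in CPM (vertical axis, from 0) of the 10 members whose dorsal and ventral libraries did not overlap, by group, with points for libraries and bars for the mean and SD. Nr2f2 lies between 5.96 and 8.64 CPM in dorsal and between 25.9 and 35.8 CPM in ventral libraries, and ventral EE replicate 2 stands out at 36.9 CPM for Tshz2.

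Among the POU homeodomain genes, which act in neural progenitors and neurons, 3 of 5 were called, all higher in dorsal. Pou3f1 ranged over 7.71 to 14.4 CPM (median 13.0) in dorsal and 4.91 to 11.4 CPM (median 6.36) in ventral libraries. Dorsal SH replicate 1 (7.71 CPM), dorsal EE replicate 5 (9.13 CPM) and ventral EE replicates 2 and 3 (11.4 and 9.91 CPM) lay where the ranges met, and the log2 difference was 0.80 ± 0.14, adjusted p = 4.08e-05. Pou3f3, with 103 to 123 CPM (median 119) in dorsal and 76.6 to 111 CPM (median 86.4) in ventral libraries, had a log2 difference of 0.43 ± 0.05, adjusted p = 2.92e-07. Both genes were higher in dorsal in all 9 pools. Pou2f2 was low, with 1.22 to 2.64 CPM (median 2.17) in dorsal and 1.2 to 2.22 CPM (median 1.61) in ventral libraries, and higher in dorsal in 7 of 9 pools (0.40 ± 0.13, adjusted p = 0.00828). Pou3f2 (-0.07 ± 0.06, adjusted p = 0.314) and Pou6f1 (0.06 ± 0.06, adjusted p = 0.384) did not pass.

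The LIM-only genes encode adaptor proteins without a DNA-binding domain, and among them was the most abundant member per transcript length (Lmo4). Lmo3, with 129.6 to 176 CPM (median 160.1) in dorsal and 110.5 to 144 CPM (median 132) in ventral libraries, was called higher in dorsal at just over the fold limit (0.27 ± 0.04, adjusted p = 1.11e-05). That call was lost with unstranded counts (log2 difference 0.26), with all 20 libraries (0.26) and without SH replicate 1 (0.25), where the fold change fell under the limit. Lmo1 was under the fold limit (-0.19 ± 0.06, adjusted p = 0.00692), and Lmo2 (-0.02 ± 0.05, adjusted p = 0.792) and Lmo4 (0.00 ± 0.04, adjusted p = 0.945) did not pass. Lmo4 lay between 174 and 211 CPM in dorsal and between 173 and 213 CPM in ventral libraries, the same median of 196 CPM in both.

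In the CUT homeodomain and SATB group, 1 of 4 was called. Onecut2, a CUT factor of neuronal differentiation, ranged over 8.81 to 10.6 CPM (median 9.58) in dorsal and 6.79 to 8.99 CPM (median 7.76) in ventral libraries and was higher in dorsal in all 9 pools (0.31 ± 0.05, adjusted p = 3.59e-05). Satb1, a chromatin organiser, was higher in ventral in all 9 pools but under the fold limit (-0.19 ± 0.05, adjusted p = 0.000930). Cux1 (0.03 ± 0.04, adjusted p = 0.613) and Cux2 (-0.07 ± 0.06, adjusted p = 0.348), known for upper cortical layers, did not pass.

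Levels were compared between genes as CPM per kb of transcript, averaged over the 18 libraries. Lmo4 was the highest at 131 CPM per kb, followed by Zbtb20 (64.6), Lmo3 (55.2), Bcl11b (28.6), Nr2f1 (24.4) and Lhx2 (23.3). The lowest tested members were Meis1 (0.290), Pou2f2 (0.445), Dlx2 (0.544) and Onecut2 (0.650), and Six3 stood at 0.0108. Nr2f2 ranked 20 of 39 with a mean of 5.60 CPM per kb.

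**Figure D4:**
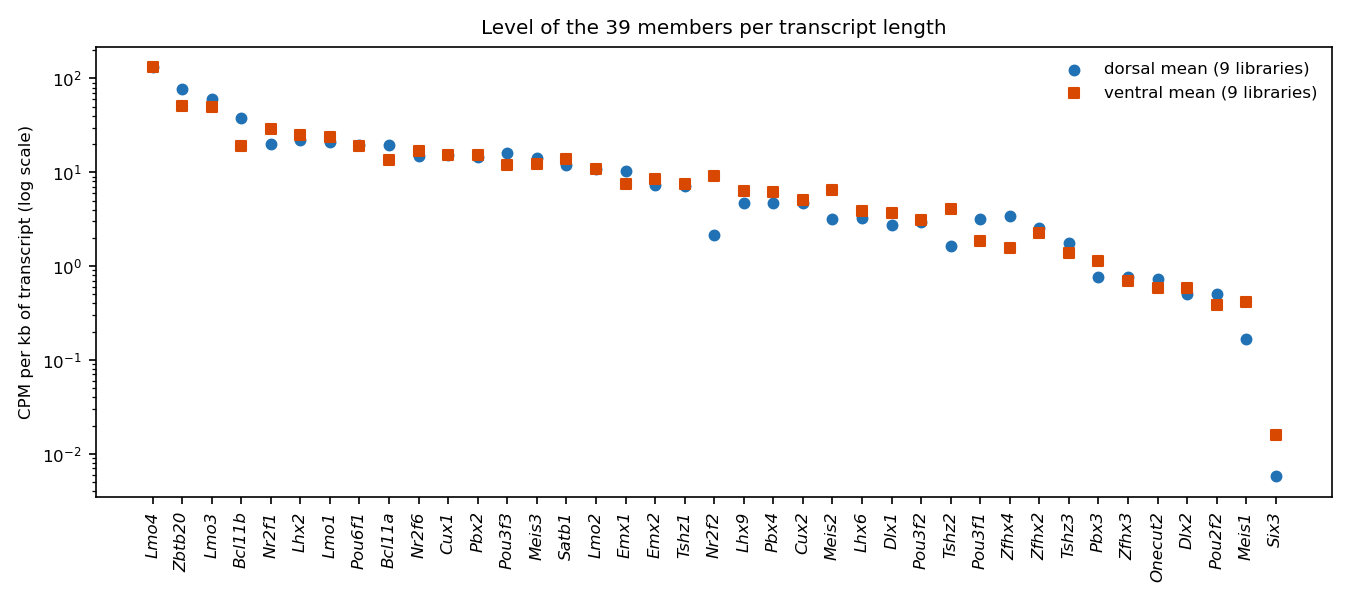
CPM per kb of transcript (vertical axis, log scale) of the 39 members, ordered by their mean over 18 libraries, with circles for the mean of 9 dorsal and squares for the mean of 9 ventral libraries. Lmo4 leads at 131 CPM per kb over all libraries, and the widest gap between circle and square among tested members is that of Nr2f2.

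The design also asked whether housing changed these genes within a region. In dorsal DG no member was called by edgeR's quasi-likelihood test (0 of 38, against 0.634% of all tested genes). By DESeq2 the count was also 0, and by the likelihood ratio test it was 1 (Lhx9). At an unadjusted p under 0.05 there were 4 of the 38 members, all lower in EE, against 8.81% of all tested genes (1502 of 17040). The log2 differences, EE minus SH, ran from -0.39 to 0.27 over members, with a median of -0.06 (0.00 over all tested genes). Lhx9 had the smallest p. Its dorsal SH libraries held 25.5, 20.4, 22.8 and 23 CPM and its dorsal EE libraries 21.4, 17.7, 19.5, 18.0 and 18.2 CPM. Of the 5 EE libraries, 4 were below all SH libraries, and the difference was -0.27 ± 0.08, adjusted p = 0.112. With replicate number as a block in the model Lhx9 was called (log2 difference -0.28, adjusted p = 0.0435), as it was by the likelihood ratio test (-0.27, adjusted p = 0.0405) and with all 20 libraries (-0.31, adjusted p = 0.0276). Without SH replicate 1, which had the highest dorsal value, the adjusted p was 0.435. Lmo3 held 176, 161, 164 and 174 CPM in dorsal SH and 156, 129.6, 157, 160.1 and 153 CPM in dorsal EE, where the EE libraries lay below all SH libraries, and the difference was -0.16 ± 0.06, adjusted p = 0.386. Pou2f2 held 2.55, 2.06, 2.56 and 2.64 CPM in dorsal SH and 2.17, 2.32, 1.91, 1.22 and 1.75 CPM in dorsal EE, with overlap, and its difference was -0.39 ± 0.17, adjusted p = 0.495.

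In ventral DG no member was called either by the same test (0 of 38, against 0.241% of all tested genes), and DESeq2 and the likelihood ratio test each gave 0. An unadjusted p under 0.05 was reached by 8 of the 38 members, 5 higher and 3 lower in EE, against 7.58% of all tested genes (1292 of 17040). The log2 differences, EE minus SH, ran from -0.22 to 0.70, with a median of 0.02 (0.00 over all tested genes). Tshz2 had the smallest p and the largest difference, 0.70 ± 0.21, adjusted p = 0.276. The ventral EE libraries given above (16.9, 36.9, 21.4, 18.9 and 16.0 CPM) all exceeded the SH libraries (12.5, 12.6, 15.2 and 13.6 CPM). Without EE replicate 2 the difference was 0.44 (adjusted p = 0.446). With no count filter Tshz2 was called (0.70, adjusted p = 0.0123). Lmo2 held 18.3, 17.7, 17.5 and 16.0 CPM in ventral SH and 15.1, 16.3, 12.4, 16.4 and 14.6 CPM in ventral EE, with overlap, and a difference of -0.22 ± 0.08, adjusted p = 0.417. Lmo1 held 30.8, 25.9, 28.2 and 26.3 CPM in ventral SH and 25.1, 25.8, 24.3, 21.5 and 23.6 CPM in ventral EE, all EE libraries being below all SH libraries, and the difference was -0.21 ± 0.08, adjusted p = 0.464. For the 4 LIM-only genes the differences were -0.15, -0.16, -0.16 and -0.02 in dorsal and -0.21, -0.22, -0.15 and -0.11 in ventral (Lmo1, Lmo2, Lmo3 and Lmo4), and none passed in either region.

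**Figure D5:**
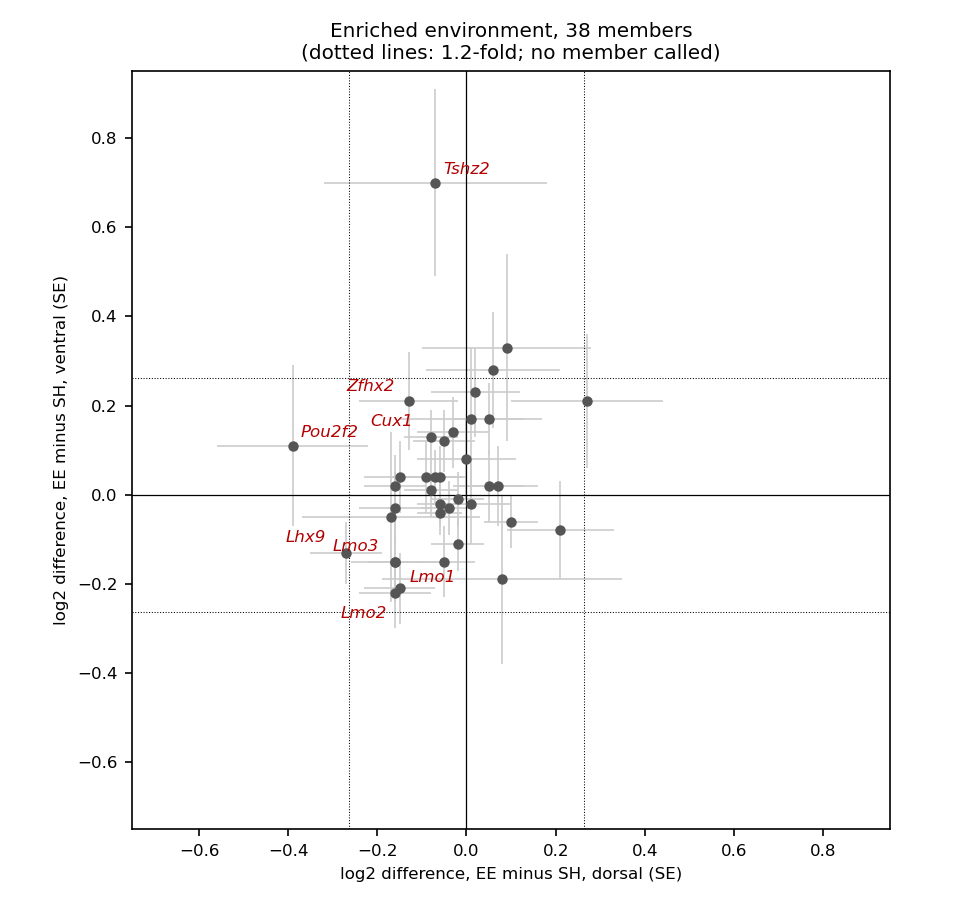
Log2 difference, EE minus SH, in dorsal (horizontal axis) and ventral DG (vertical axis) for the 38 tested members, with SE as error bars and dotted lines at the fold limit of 1.2. Most points lie within the dotted lines in both regions, Tshz2 at 0.70 in ventral stands apart, and no member was called in either region.

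The interaction of region and housing, which tests whether the EE effect differs between dorsal and ventral DG, was called in no member by edgeR's quasi-likelihood test (0 of 38, against 0.00587% of all tested genes). The counts by DESeq2 and by the likelihood ratio test were also 0. Of the 38 members, 3 had an unadjusted p under 0.05, against 3.25% of all tested genes (553 of 17040). Cux1 had the smallest p, with an EE effect in dorsal minus that in ventral of -0.21 ± 0.09, adjusted p = 1.000. Its libraries held 56.6, 58.4, 55.1 and 52.7 CPM in dorsal SH, 58.7, 55.8, 53.5, 46.3 and 49.2 CPM in dorsal EE, 52.1, 52.4, 48.1 and 50.5 CPM in ventral SH and 55.3, 61.6, 50.9, 54.1 and 56.4 CPM in ventral EE, with overlap between SH and EE in both regions. Tshz2 followed with -0.77 ± 0.33, adjusted p = 1.000, and Zfhx2 with -0.33 ± 0.15, adjusted p = 1.000. Without EE replicate 5 the Zfhx2 value was -0.18 (adjusted p = 1.000).

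A further list held 64 partners and other family genes, such as LDB cofactors of the LIM proteins, further POU and DLX genes and other forebrain factors. Of these, 50 were tested, and 12 were called higher in dorsal and 10 higher in ventral, against 15.9% and 16.8% of all tested genes, with a median log2 difference of 0.06 (0.00 over all tested genes). The called genes included 3 past 2-fold. Ldb2, a cofactor that binds LIM domains, averaged 3.55 ± 0.376 CPM in dorsal SH (SD, n = 4), 3.42 ± 0.395 in dorsal EE (n = 5), 11.9 ± 1.78 in ventral SH (n = 4) and 13.0 ± 2.45 in ventral EE (n = 5). Its log2 difference, -1.83 ± 0.10, adjusted p = 4.43e-13, was opposite in sign to that of Ldb1, the other LDB cofactor on the list (0.13 ± 0.03, adjusted p = 0.000758, under the fold limit). Otx2, a homeodomain factor that is also on the choroid plexus list, averaged 0.689 ± 0.503, 0.769 ± 0.259, 2.67 ± 1.16 and 3.81 ± 1.97 CPM in the same 4 groups (log2 difference -2.12 ± 0.29, adjusted p = 1.56e-06). Onecut1, a CUT relative of Onecut2, was close to the count limit, with 0.600 ± 0.180, 0.321 ± 0.140, 0.235 ± 0.0660 and 0.173 ± 0.0461 CPM (1.09 ± 0.23, adjusted p = 0.000392). By edgeR's quasi-likelihood test none of the 50 was called for EE, and 4 in dorsal and 3 in ventral DG had an unadjusted p under 0.05, against 8.81% and 7.58% of all tested genes.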

How the data were processed

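RNA-Seq was made from dorsal and ventral DG of mice in SH or EE, and only the RNA files were analysed here. The bisulfite and TAB sequencing samples of the series were not analysed here. Per the labels' processing notes, which name Trim Galore 0.4.0, STAR 2.5.1b and RSEM 1.2.30, the authors trimmed and aligned reads to mm10 and counted fragments per gene. The count table deposited by the authors gives fragments per gene, unstranded and by strand, without normalization. The expected count deposited by the authors shares out fragments that fit several genes. TPM deposited by the authors accounts for transcript length and total, and 57.9 to 71.9% of it lay in 5 small RNA genes, so levels between genes were compared as CPM per kb.

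The members and lists were chosen with earlier results of these data known. SH replicate 3 was left out by the rule for the members. The study's methods exclude 1 SH sample for high Xist, without giving its number, so fits with all 20 libraries may include it. Counts on the reverse strand, for genes exceeding 10 counts in 2 or more libraries, were fitted with the 4 groups in 1 model (edgeR 4.0.16, R 4.3.3, TMM). The region contrast was the mean of the dorsal minus ventral differences in SH and in EE. Standard errors were derived from the log2 difference and its F statistic. Named were all tested members for region, and for EE and the interaction the 3 members with the smallest p. Of the further list, genes past 2-fold or called for EE were named.

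At 22919364 to 28301861 fragments on genes per library (32.6 to 40.9% of fragments were not on genes), Six3 was under the count filter. Within groups, 32 pairs of libraries differed by a chi-square per degree of freedom of 2.85 to 37.1, so none was counted as a duplicate. A figure legend of the study connects dorsal and ventral samples of the same mice without giving numbers, and matching them by number was an assumption made here. Deviations from group means of such pairs correlated with a mean r of 0.162 (9 pairs, -0.171 to 0.374, 7 over 0.1). Dorsal and ventral libraries of different numbers in the same housing had a mean r of -0.0444 (32 pairs, -0.353 to 0.385, 6 over 0.1). SH and EE libraries of 1 number had a mean r of 0.244 (8 pairs, 0.122 to 0.339, all over 0.1). Fits with a block on pool or on number were alternatives. Other alternatives were RLE size factors, DESeq2 1.42.0, the likelihood ratio test, no count filter, TPM over 1 in at least 3 libraries, no fold limit, unstranded counts, RSEM expected counts (rounded), a 2-df region test, all 20 libraries, and leaving out each pool. Figures used matplotlib 3.10.9. Gene coordinates are those of Gencode M21 on GRCm38, the build of the files.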

Additional observations from a re-analysis of the deposited data

Results flagged for a closer look

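In 152 groups of 4 or 5 libraries (38 members in 4 groups), 13 had a highest or lowest library set apart from the rest by more than Dixon's 95% limit, where chance flags about 1 group in 20. Ventral EE replicate 2 was set apart for Tshz2 (36.9 CPM, others 16.0 to 21.4), Lhx2 (71.4 CPM, others 57.7 to 59.3) and Meis1 (0.679 CPM, others 1.18 to 1.33). Dorsal EE replicate 2 was set apart for Bcl11a (49.2 CPM, others 61.9 to 65.0), Lmo3 (129.6 CPM, others 153 to 160.1), Pbx3 (2.90 CPM, others 1.77 to 1.96) and Pbx4 (4.35 CPM, others 3.35 to 3.60). These 2 libraries have the same replicate number. Without this pair the count of members called for region stayed at 20.

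Dorsal SH replicate 1 was set apart for Pou3f1 (7.71 CPM, others 13.0 to 13.1), Onecut2 (10.6 CPM, others 9.53 to 9.65) and Tshz1 (39 CPM, others 34.8 to 35.1). It also had the highest sums of choroid plexus markers (221 CPM) and of habenula and thalamus markers (313 CPM) among dorsal libraries, and their part in these values was not tested. The remaining 3 were Pou2f2 in dorsal SH replicate 2 (2.06 CPM, others 2.55 to 2.64), Zfhx4 in ventral SH replicate 1 (15.7 CPM, others 13.7 to 13.9) and Lhx6 in ventral EE replicate 4 (10.4 CPM, others 12.2 to 12.6).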

How the results depend on the processing

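Of the 38 members tested, 20 were called for region, and 15 to 20 under the settings that kept the fold limit and all pools. The lowest count came with TPM over 1 in at least 3 libraries, which left 31 members to test. Leaving out 1 pool at a time gave 19 to 21 calls (10 to 12 higher in dorsal, 9 higher in ventral). Without the fold limit 28 were counted, and those higher in ventral went from 9 to 15. The regions did not overlap in 10 members, in 9 with all 20 libraries and in 7 on TPM. The block on pool (20 calls) changed no region or interaction call, and the block on replicate number changed no EE call other than that of Lhx9.

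Lmo3 lost its region call in the 3 settings named in the report. Lhx6 (-0.29 with all 20 libraries) and Zfhx2 (0.29 without EE replicate 5) gained one. Differences near 0 changed sign when a pool was left out, for Lmo2 (-0.06 to 0.0106) and Lmo4 (-0.01 to 0.0142). Members called for EE in dorsal DG went from 0 to 1, lowered by EE (Lhx9), by the likelihood ratio test, with all 20 libraries and with replicate number as a block. In ventral DG they went from 0 to 1, raised by EE (Tshz2), with no count filter. The cause of these changes was not tested. Leaving out pools gave 0 calls for EE in both regions and 0 for the interaction. RLE size factors moved the median of all genes by at most 0.01 (log2). Six3, under the count filter, was tested with no count filter and was not called. Unstranded counts moved Dlx1 from -0.44 to -0.27 (region), and leaving out EE replicate 5 moved the Zfhx2 interaction from -0.33 to -0.18.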
